A study of Homo sapiens and Mus musculus with 47 samples.

Results

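HEK293T is a human embryonic kidney cell line. Its poly(A)+ RNA was sequenced after transfection of a negative control antisense oligonucleotide (ASO), and these 3 control ASO samples are set here against 3 HEK293T samples that received no ASO, 6 of the 47 samples in the series. Members were chosen by their titles alone, and the 2 groups come from 2 separately deposited count tables that were joined by gene identifier. The study describes the no-ASO cells as untreated and the control ASO, named ASOXNC23, as an oligonucleotide without a human target; the labels give every sample the same text on 48 h of construct expression followed by proximity labelling (500 µM biotin-aniline, 30 min, then 1 mM H2O2, 1 min). The time between ASO transfection and RNA extraction was not stated for RNA-seq. In all, 3 further groups in the control ASO's table received ASOs against the long noncoding RNAs SETD5-AS1 (3 samples), LINC00641 (2 samples) and LINC00662 (3 samples), and they serve to show which differences were shared by everything in that table. The no-ASO table also holds 3 samples of cells transfected with the CBX7 chromatin reader. Table and ASO transfection cannot be told apart in the main comparison, and nothing in the labels says that replicates were separate cultures, so p-values measure the spread between these samples only.

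An ASO is a short single strand of modified DNA that pairs with a complementary RNA and recruits RNase H, which cuts the RNA strand of the hybrid. A control ASO is designed to lack a perfect partner, but the transfection, the oligonucleotide's backbone and its partial matches are still delivered to the cell. Unmethylated CpG dinucleotides in DNA are the motif read by the sensor TLR9, and foreign nucleic acids in general can be read by sensors that switch on interferon and NF-kB targets. Immediate early genes are transcribed within minutes of a stimulus without new protein synthesis, and ribosome biogenesis factors build ribosomal subunits in the nucleolus.

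The control sequence is shown with the ASO of the series that comes closest to it in CpG content, CpG dinucleotides in capitals. Both are written 5′ to 3′. The study lists several ASOs for each target, and which of them entered each RNA-seq library is not stated.
ASOXNC23 (control): ttctcCGaaCGtgtcaCGtt
SETD5-AS1 ASO-3: cttaCGcaaCGgataaagcc
The control ASO is 20 bases long with 50% GC and 3 CpG dinucleotides. SETD5-AS1 ASO-3 holds 2, and the other targeting ASOs hold none.

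No site in GRCh37 (the build of the counts, hg19) pairs with the whole control ASO, and none pairs with it at 1 mismatch. There is 1 such site at 2 mismatches and there are 22 sites at 3. The perfect partner and the closest site are shown as the RNA strand with the mismatched bases in capitals.
Perfect partner: aacgtgacacgttcggagaa
Site in RP11-165P7.1: aacgtgacaTgttTggagaa
This site lies at chr12:27585717-27585736 on the minus strand, in an intron of the antisense gene RP11-165P7.1 (ENSG00000245311.2), which had too few counts to be tested. Of the sites at 3 mismatches, 3 lie inside a gene span on the same strand, all in introns. Among these genes ZNF365, a zinc finger protein gene with the site at chr10:64150393-64150412, had a mean of 1.10 CPM without ASO and 4.44 CPM with the control ASO, a log2 fold change of 2.01 ± 0.26 (SE, adjusted p = 5.8e-07, edgeR quasi-likelihood test). CPM are counts divided by the library's total, the total being multiplied by a TMM factor set over the 17 RNA-seq libraries, and brought to the usual depth-scaled unit.

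The libraries held 12109803 to 15330874 counts without ASO, 11641275 to 13713968 with the control ASO and 11619315 to 15023098 with a targeting ASO. Mitochondrial ribosomal RNA took 0.896 to 1.09% of counts without ASO, 1.41 to 1.63% with the control ASO and 0.726 to 1.07% with targeting ASOs. Between 22441 and 22848 genes had a count with the control ASO, against 21428 to 22119 without ASO. The summed level of 10 HEK293T markers was 1976 to 2095 CPM without ASO and 1947 to 2095 CPM with the control ASO. It was 1477 to 1648, 1976 to 2024 and 1672 to 1754 CPM with the SETD5-AS1, LINC00641 and LINC00662 ASOs. With the control ASO 3 of the 10 were called higher and 3 lower (30% each), against 16% and 16.3% over all genes. The summed level of 13 markers of other cell types was 85.8 to 98.1 CPM without ASO, 133.7 to 153.2 CPM with the control ASO and 72.7 to 88.0 CPM with targeting ASOs. Of these markers 5 were tested and 4 were called higher (80%, against 16% over all genes), APOA1, NPHS1, GFAP and CDX2. This share depends in part on the count filter, since a gene scarce elsewhere can enter the test through its control ASO counts. Under a stricter cutoff, averaging 20 counts per library, 3 markers were tested and 2 rose. Leaving out control ASO replicate 1 left 4 tested and 3 higher. When any gene with a count was kept, 11 were tested and 5 rose. APOA1 had 1 to 3 counts per library without ASO and 8 to 12 with the control ASO, and NPHS1 6 to 25 and 21 to 34. NPHS1 lost its call without no-ASO replicate 1 or 2, at 1.06 in both. Most of the summed level came from CDX2 and COL1A1, and COL1A1 was not called. The T cell marker CD3E and the tubule marker UMOD had 0 counts in all 6 libraries, and PTPRC had at most 5. The part of these shifts in the results that follow was not tested.

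Against the no-ASO cells, 5995 of 18546 genes tested (32.3%) were called with the control ASO, 2974 higher and 3021 lower. Calls needed a log2 fold change of 0.75 or more in either direction together with an adjusted p below 0.05, in 1 edgeR quasi-likelihood fit over the 14 no-ASO and ASO libraries. TMM scaling centres the fold changes, and the median over all genes tested was 0.008; with library size alone it was −0.075, and 2545 genes were higher and 3503 lower (42.1% higher, against 49.6% here). In bulk RNA, fewer cells of a kind and less RNA per cell cannot be told apart. Against the same no-ASO libraries the SETD5-AS1 ASO gave 1262 calls (6.8%), the LINC00641 ASO 1133 (6.11%) and the LINC00662 ASO 3205 (17.3%). The mean of the 3 targeting groups gave 1690 calls (9.11%). By number of calls the control ASO was thus the ASO group furthest from the no-ASO libraries. For the SETD5-AS1 ASO 58.4% of calls were higher, and 69% with library size alone.

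**Figure D1:**
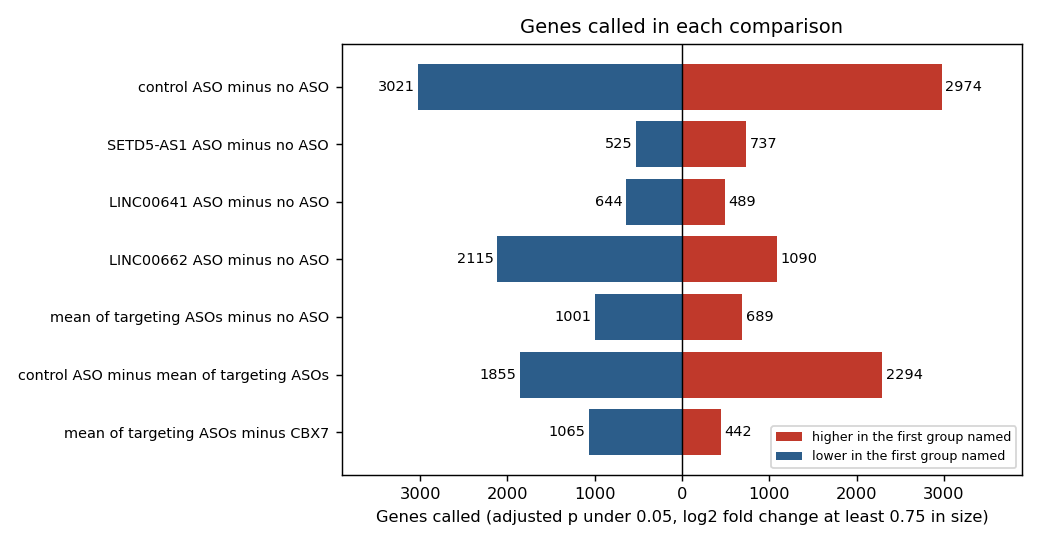
Horizontal bars give the number of genes called higher (right, red) and lower (left, blue) in the first group named, for each of 7 comparisons. The control ASO bars (2974 and 3021) are longer than those of each targeting ASO against the same no-ASO libraries.

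Tested directly against the mean of the 3 targeting groups, which lie in its own table, the control ASO differed in 4149 genes (22.4%), 2294 higher and 1855 lower. The higher share of these was 55.3%, and 42% with library size alone as the scaling. Effects of the targeting ASOs themselves also enter this within-table difference, and how much of it they carry was not tested. The difference between control ASO and no ASO is the sum of this within-table difference and the targeting difference from no ASO. Of the 5995 called genes, 297 (4.95%) were called in the same direction with all 4 ASOs, 171 higher and 126 lower. A further 2564 (42.8%) were called with the control ASO, also called the same way against the targeting ASOs, and not called that way with any targeting ASO; 1444 of these were higher and 1120 lower (56.3% higher, and 42.6% with library size alone). The remaining 3134 (52.3%) fell between the 2 classes. In the control-ASO-alone class the median size of the change was 1.27 on the log2 scale, of which the targeting mean carried 0.12 and the within-table difference 1.14. In the class shared by all 4 ASOs the median size was 1.72 and the targeting mean carried 1.3. These splits follow in large part from how the 2 classes were defined. All these comparisons share the no-ASO libraries, so the shared class gives no independent support.

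The same 2 tables could be compared without those 6 libraries, as targeting ASOs against the CBX7 reader cells. It called 1507 of 18371 genes (8.2%), 442 higher and 1065 lower. Across 17914 genes, which are not independent replicates, its log2 fold changes correlated with those of the control ASO against no ASO (fitted on its own 6 libraries) at Pearson r = 0.113. The 2 comparisons had 473 genes called in the same direction, 8.18% of the first list and 33.3% of the second. Another 154 were higher in the first and lower in the second, more than the 133 higher in both, and 35 were lower and then higher. Genes of the class shared by all 4 ASOs had, against the CBX7 cells, a median log2 fold change of 0.50 for the 171 that rose and −0.57 for the 125 of 126 fallen genes that were in that fit. Of these, 51 and 45 were called the same way, and 5 of the risen genes the opposite way, where 2.41% of all genes were called higher and 5.8% lower. The corresponding medians against no ASO were 1.32 and −1.28, and both use the targeting libraries. For the control-ASO-alone class the medians against the CBX7 cells were −0.12 for the 1343 of 1444 risen genes in that fit and 0.07 for the 1120 fallen genes. Of the risen genes 12 were called the same way and 106 the opposite way, and of the fallen genes 20 and 30.

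The lncRNAs that the targeting ASOs were made against checked the labels. SETD5-AS1 stood at 29.2, 30.0 and 32.4 CPM without ASO, 52.7, 53.4 and 53.6 CPM with the control ASO, and a mean of 4.30 CPM with its own ASO. It was lowest where its own ASO was used and highest with the control ASO, a log2 fold change of 0.81 ± 0.08 (adjusted p = 6.4e-09) against no ASO. With library size alone as the scaling this value was 0.73, under the size threshold. The start of the gene overlaps SETD5 on the other strand, and SETD5, which encodes a SET domain protein, fell by 1.48 with the control ASO. LINC00641 had 25.3 to 32.3 CPM without ASO, 38.5 to 43.0 CPM with the control ASO and a mean of 1.42 CPM with its own ASO; its log2 fold change of 0.50 with the control ASO did not reach the size threshold. LINC00662 was at 9.56 to 14.2 CPM without ASO and 12.4 to 14.3 CPM with the control ASO, overlapping ranges, against 1.59 CPM with its own ASO.

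The largest rise among well-counted genes was in SGK1, a serum- and glucocorticoid-inducible kinase. It had 3.74, 3.09 and 3.33 CPM without ASO and 108.1, 112.3 and 110.4 CPM with the control ASO. Its mean was 4.94, 4.63 and 6.34 CPM with the SETD5-AS1, LINC00641 and LINC00662 ASOs. The log2 fold change was 5.04 ± 0.12 (adjusted p = 1.0e-18) against no ASO and 4.39 against the targeting mean. Of 14 other glucocorticoid-related genes tested, 4 rose and 3 fell, where 16% rose and 16.3% fell over all genes. TSC22D3 (the glucocorticoid-induced leucine zipper) fell by 0.97.

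WDR74, a ribosome assembly factor, had 21.1, 23.8 and 22.7 CPM without ASO and 328.8, 286.6 and 325.3 CPM with the control ASO. Each targeting group had a mean between 27.6 and 36.8 CPM, so the gene was high only in the 3 control ASO libraries among the 17. The log2 fold change was 3.81 ± 0.09 (adjusted p = 3.7e-19). The span of WDR74 holds a copy of the U2 small nuclear RNA (RNU2-2P), and how reads of that copy were assigned is not known.

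CLP1, an RNA kinase of the tRNA splicing and 3′ end cleavage complexes, rose from 8.82 to 11.3 CPM without ASO to 72.7 to 83.1 CPM with the control ASO, against means of 13.1 to 13.3 CPM with targeting ASOs. ARRDC3, an arrestin-domain protein, rose from 11.3 to 18.1 CPM to 97.6 to 103.1 CPM. PLK2, a stress-responsive kinase, rose from 9.53 to 11.7 CPM to 66.9 to 70.3 CPM. Rises of 2.74 to 3.27 on the log2 scale were also seen in PHLDA2 (an imprinted growth regulator), the homeobox gene DLX3, the repressor SNAI1, ZCCHC12 and IER5L. Each of these was called higher against the targeting ASOs as well and was not called higher with any one of them. HEXIM1, which with the noncoding RNA 7SK holds the elongation kinase P-TEFb inactive, was chosen after its values were seen. It rose by 2.19 with the control ASO and belongs to the same class. The CBX7 cells, which had no ASO, had means of 37.45, 18.85 and 19.77 CPM of ARRDC3, PLK2 and CLP1. These lay between the no-ASO and control ASO values and above every targeting mean. The CBX7 means of PHLDA2, DLX3, SNAI1 and IER5L did too, and that of ZCCHC12 (5.48 CPM) did not.

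**Figure D2:**
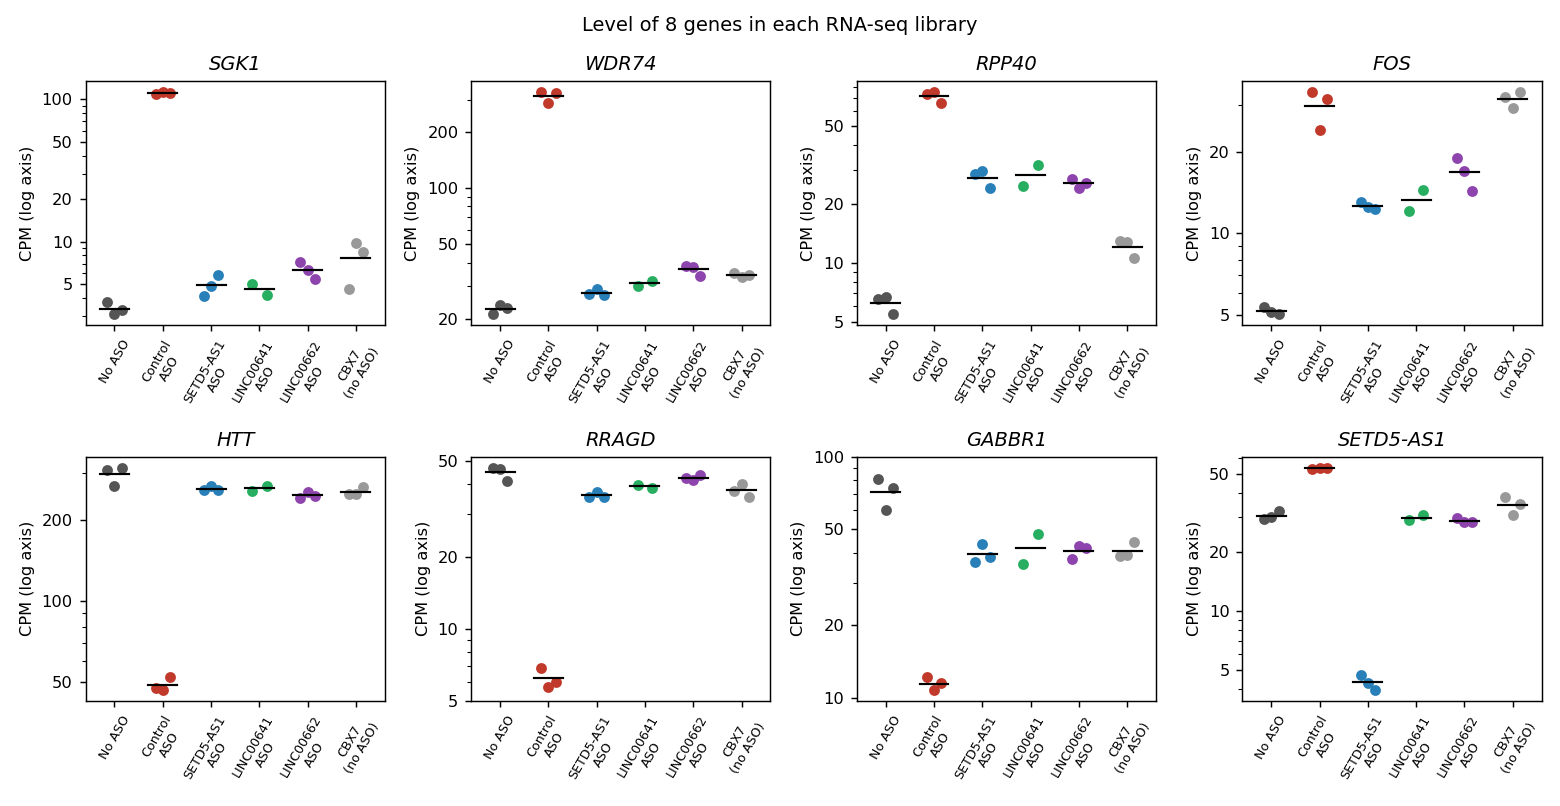
Each panel plots 1 gene, a point per library on a log CPM axis and a bar at the group mean, for the 6 RNA-seq groups. SGK1 and WDR74 are high and HTT and RRAGD low in the control ASO libraries alone, RPP40 and FOS rise less with the targeting ASOs, and FOS and GABBR1 in the CBX7 cells also differ from the no-ASO cells.

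Among the falls, HTT, which encodes huntingtin, had 307.1, 268.6 and 312.5 CPM without ASO and 47.4, 46.7 and 52.1 CPM with the control ASO. The means were 261.6, 262.3 and 247.3 CPM with the targeting ASOs and 254.3 CPM in CBX7 cells, so the low level was seen in the control ASO libraries and in no other group. The log2 fold change was −2.59 ± 0.08 (adjusted p = 5.7e-17) against no ASO and −2.39 against the targeting mean. RRAGD, a Rag GTPase that brings mTORC1 to lysosomes, had 46.9, 46.2 and 41.4 CPM without ASO and 6.88, 5.73 and 6.02 CPM with the control ASO. Its log2 fold change was −2.83 ± 0.10 (adjusted p = 6.5e-16). Its paralog RRAGC rose by 1.23 in the same libraries.

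CEP250, a centrosome linker protein, had 428.6 to 551.7 CPM without ASO and 100.5 to 110.9 CPM with the control ASO, against means of 376.8 to 394.5 CPM with targeting ASOs. SH3KBP1, an adaptor of receptor endocytosis, went from 65.5 to 70.1 CPM to 9.44 to 13.5 CPM. For both genes each control ASO library lay below each of the other 14 RNA-seq libraries. Among genes with 100 or more counts on average and separate ranges, TMEM56 had the largest fall, −3.51 ± 0.44 (adjusted p = 2.6e-07). Its control ASO values of 0.46, 0.087 and 3.96 CPM were uneven. USH1C, a scaffold of hair cells and microvilli, fell by 2.51.

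FAHD2CP, FAHD2A and FAHD2B are near-identical copies whose reads may be shared. FAHD2A had a mean of 85.1 CPM without ASO and a mean of 17.3 CPM with the control ASO, FAHD2B 39.5 to 47.1 and 8.63 to 9.66 CPM, and the pseudogene FAHD2CP 23.9 to 32.0 and 3.04 to 4.14 CPM. Their log2 fold changes were −2.29, −2.22 and −2.91, and how much each copy carried cannot be read from the counts. MAPT (tau), GAB2 (a signalling adaptor) and PRKCB (a protein kinase C) fell by 2.68, 2.78 and 2.62 with the control ASO; GAB2 and MAPT were also called lower with the SETD5-AS1 ASO and PRKCB with the LINC00641 ASO. The ectodysplasin gene EDA fell by 2.56 and was lower still with the LINC00662 ASO, at 1.13 CPM against 16.7 to 20.4 CPM without ASO.

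Partial matches to the control ASO were counted in the spans of the fallen genes. On the RNA strand of the HTT span the best match had 6 mismatches, as few as in 82.6% of tested genes in the longest of 5 span groups, and the longest run of paired bases was 10, reached in 14.9% of them. RRAGD had 7 mismatches at best, and FAHD2A, FAHD2B and FAHD2CP had 8. SH3KBP1 held a match with 4 mismatches, as few as in 1.86% of that group. In the same group, 11 of the 473 that were lower with the control ASO alone held a match with at most 4 mismatches (2.33%), against 40 of 2258 uncalled genes (1.77%) and 2 of 234 higher ones (0.855%). These are matches of letters within the gene span, introns included, and no site of cleavage was measured.

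The change with the control ASO followed gene span, the distance from a gene's start to its end. In 5 equal groups of the tested genes from the shortest to the longest span, the median log2 fold change was 0.22, 0.22, 0.10, −0.04 and −0.44. The share called higher went from 22.4% in the shortest group to 6.31% in the longest, and the share called lower from 9.76% to 32.8%. With the LINC00662 ASO the share called lower went from 8.57% to 23.6%, and it was 3.56% and 4.18% with the SETD5-AS1 ASO and 3.42% and 4.99% with the LINC00641 ASO. With the targeting mean the medians were 0.00, −0.02, 0.02, 0.02 and −0.14, and between control and targeting ASOs 0.20, 0.20, 0.08, −0.07 and −0.25. Genes spanning over 100 kb took 16, 15.2 and 16.1% of counts without ASO and 11.3, 11.5 and 11.6% with the control ASO. They took 14.5 to 15.4% with targeting ASOs and 15.5 to 15.6% in CBX7 cells, so the control ASO libraries lay below the other 14. An exact two-sided permutation test of 3 against 3 cannot go below p = 0.1. The counts cover whole gene spans, so intronic reads may have entered them, and their share is not known.

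**Figure D3:**
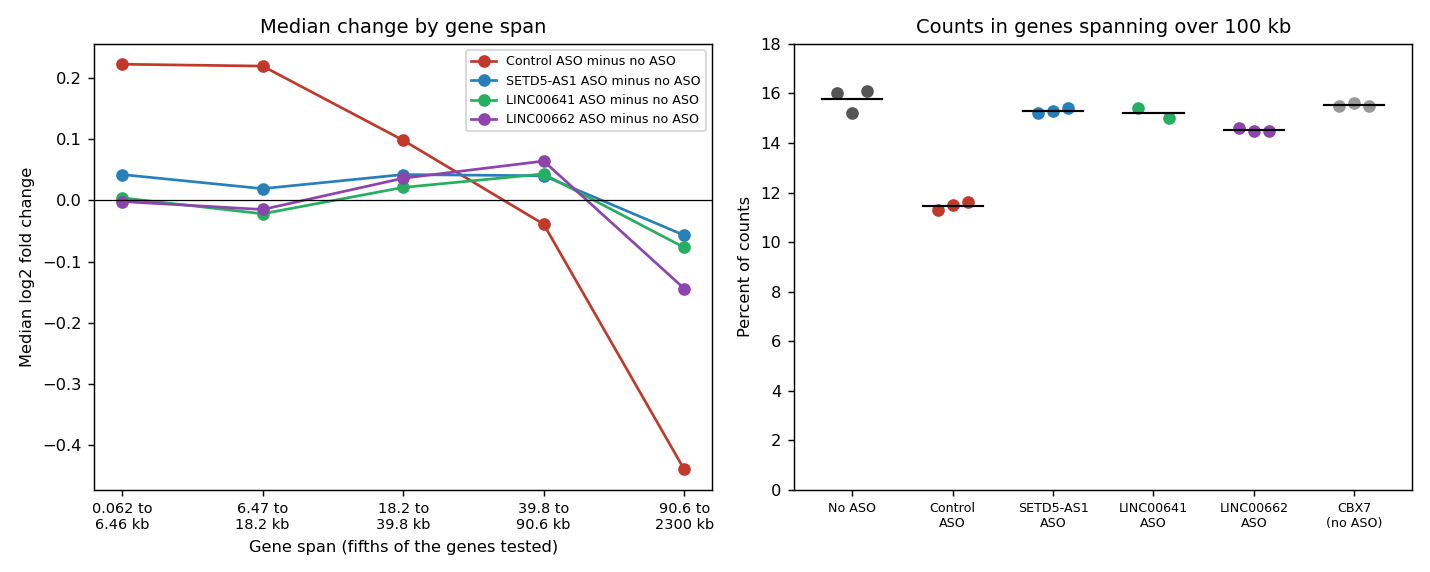
Left, the median log2 fold change against no ASO in 5 groups of gene span for each of the 4 ASOs; right, the percentage of counts in genes spanning over 100 kb, a point per library with a bar at the group mean. The control ASO line falls from 0.22 to −0.44, and its 3 libraries hold 11.3 to 11.6% where every other library holds 14.5% or more.

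Taking the span trend of each library out of the fit left 5466 genes called with the control ASO, of which 4711 were among the 5995. The control-ASO-alone class then held 2216 genes, 1832 of them shared with the 2564. HTT, RRAGD, SGK1 and WDR74 remained called in the same direction.

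By gene type, 2278 of 14334 protein-coding genes were higher and 2408 lower with the control ASO. Among 1784 antisense genes 332 were higher and 232 lower, and among 1218 lincRNAs 160 were higher and 211 lower. Small noncoding RNA classes were few: 5 of 12 misc_RNAs and 3 of 4 snoRNAs were higher, 4 of 10 snRNAs were higher and 1 lower, 3 of 19 miRNAs were higher and 1 lower, and of 11 mitochondrial tRNAs 3 were higher and 3 lower, against 16% higher and 16.3% lower over all genes. RN7SK and RN7SL1 were called higher in every ASO group. RN7SK, the 7SK RNA, had 2.48 to 9.21 CPM without ASO, 73.1 to 95.5 CPM with the control ASO and means of 46.8 and 41.9 CPM with the LINC00641 and LINC00662 ASOs. With the SETD5-AS1 ASO it had 40.1, 74.4 and 817.3 CPM, so the mean of 310.6 CPM rested on replicate 3 and was 57.3 CPM without it. RN7SL1, the RNA of the signal recognition particle, had 6.46 to 9.56 CPM, 42.8 to 58.7 CPM and means of 37.3 and 36.6 CPM in the same order, and 35.6, 51.3 and 222.5 CPM with the SETD5-AS1 ASO, a mean of 103.1 CPM and of 43.4 CPM without replicate 3. Between the control ASO and the targeting mean the log2 differences of RN7SK and RN7SL1 were −0.03 and 0.01, and neither was called. Without that 1 library they were 0.79, which was called higher, and 0.43, and 6 and 5 of the 8 targeting libraries lay below every control ASO library. RN7SL1 overlaps RPS29 and both RNAs have many copies in the genome, so these values are uncertain. The libraries were made from poly(A)+ RNA, and how much of the small RNAs passed that selection in each library was not measured. Differences in RN7SK, RN7SL1 and the small RNA classes above may therefore not be differences in their level in the cells. The CBX7 cells had 10.8 CPM of RN7SK and 12.9 CPM of RN7SL1.

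Ribosome biogenesis factors mostly rose with the control ASO. Of 70 tested members of a list drawn up after the values were seen, 50 were higher with the control ASO and 1 was lower, against 16% higher and 16.3% lower over all genes. The list's median log2 fold change was 1.11, with 0.008 over all genes, and under every alternative scaling, filter and left-out library between 46 and 50 members were called higher. RPP40, a subunit of RNase P and RNase MRP, had 6.57, 6.75 and 5.48 CPM without ASO and 73.2, 74.9 and 65.5 CPM with the control ASO. Its means with the targeting ASOs were 25.6 to 28.2 CPM and in CBX7 cells 12.1 CPM, so the order was no ASO, CBX7, targeting, control. The log2 fold change was 3.52 ± 0.12 (adjusted p = 2.8e-16). BYSL, a small-subunit assembly factor, had 59.1 to 65.2 CPM without ASO, 301.5 to 329.2 CPM with the control ASO and means of 112.6 to 135.6 CPM with the targeting ASOs. PNO1, which acts in late small-subunit assembly, had 29.3 to 39.2, 209.2 to 219.3 and 69.2 to 78.9 CPM in the same order, and 83.8 CPM in CBX7 cells. NOL6 and UTP14A of the small-subunit processome both rose by 2.29, and RRP12, an assembly factor, by 2.23.

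The part shared with the targeting ASOs was smaller. Against no ASO, 16, 17 and 28 of the 70 factors were higher with the SETD5-AS1, LINC00641 and LINC00662 ASOs. Over all genes 3.97%, 2.64% and 5.88% were higher with these ASOs. The list medians were 0.50, 0.50 and 0.65. Against the targeting mean the control ASO was higher for 25 factors and lower for 2, where 12.4% of all genes were higher and 10% lower. IMP4, a component of the U3 snoRNP, was in the control-ASO-alone class, with 52.5 to 53.5 CPM without ASO, 241.0 to 273.5 CPM with the control ASO and means of 66.3 to 79.0 CPM with targeting ASOs. TCOF1, the nucleolar protein treacle, was the member that fell, from 1044 to 1261 CPM to 282.9 to 337.7 CPM. Of 14 tested components of the RNA polymerase I machinery, which transcribes ribosomal RNA, 9 were higher (64.3%) and 1 lower. RRN3, the initiation factor of that polymerase, rose by 1.90, and the largest subunit POLR1A fell by 0.92. Ribosomal protein genes moved less, with 15 of 82 higher (18.3%, near the 16% of all genes), 2 lower and a median of 0.29.

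Immediate early genes were the list with the highest median. Of 35 tested, 24 were higher with the control ASO (68.6%, against 16% over all genes) and 2 were lower, and the median log2 fold change was 1.36. Of the called genes of the list 17 were in the control-ASO-alone class, which held 42.8% of all called genes. The list medians with the SETD5-AS1, LINC00641 and LINC00662 ASOs were −0.13, 0.19 and 0.37. With the LINC00662 ASO 10 of the 35 were called higher, against 5.88% of all genes. FOSB, a partner of JUN in AP-1, had 1.83, 2.60 and 3.59 CPM without ASO and 40.6, 36.9 and 38.5 CPM with the control ASO, a log2 fold change of 3.84 ± 0.20 (adjusted p = 2.8e-13). EGR1, a zinc finger activator, had 2.41, 6.54 and 8.42 CPM and 45.0, 40.7 and 47.7 CPM. Both are among the largest rises named, which were taken only from genes whose ranges in these 2 groups were separate. EGR1 stood at 69.5 CPM in the CBX7 cells, above the control ASO. FOS had 5.02 to 5.32 CPM without ASO, 24.2 to 33.3 CPM with the control ASO, means of 12.6 to 16.8 CPM with targeting ASOs and 31.6 CPM in CBX7 cells. The level of these genes therefore also differed between cells that had no ASO.

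The list holds 8 tested genes of the DUSP, SPRY and SPRED families, which restrain growth factor signalling. They were picked out after their values were seen. Of the 8, 6 rose, where 68.6% of the whole list and 16% of all genes were higher, so these families did not stand out from their list. DUSP1 and DUSP4 were at 0.26 and 0.53 and not called. SPRY2, which restrains receptor tyrosine kinase signalling, had a mean of 23.8 CPM without ASO, 81.7 to 91.0 CPM with the control ASO, means of 17.1 to 19.9 CPM with targeting ASOs and 18.3 CPM in CBX7 cells. DUSP6, the phosphatase of ERK, had 0.75 to 2.18 CPM without ASO and 7.10 to 9.20 CPM with the control ASO, against 1.63 CPM in CBX7 cells. SPRY4, DUSP5 and SPRED1, inhibitors of the same pathway, and the ETS factor ETV5 rose by 4.02, 2.12, 1.43 and 1.78. The exceptions were JUN, which fell from 733.5 to 890.9 CPM to 243.6 to 288.3 CPM, and JUND, which fell by 0.99. MYC had a log2 fold change of −0.44 and was not called.

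Targets of ATF4, the activator of the integrated stress response to amino acid shortage and other stresses, were higher for 16 of 29 tested (55.2%, against 16% over all genes) and lower for 1, with a median of 0.88. The medians with the 3 targeting ASOs were 0.03 each. With the SETD5-AS1, LINC00641 and LINC00662 ASOs 3, 2 and 5 of the 29 were called higher, against 3.97%, 2.64% and 5.88% of all genes. Of the genes called with the control ASO, 9 were in the control-ASO-alone class, which held 42.8% of all called genes. SLC3A2, the heavy chain of the large neutral amino acid transporter, had 141.4, 125.7 and 148.8 CPM without ASO and 1109, 1078 and 1094 CPM with the control ASO. It was also high with the LINC00662 ASO, at a mean of 655.7 CPM, and not with the other two, at 174.9 and 154.8 CPM. Its light chain SLC7A5 rose by 2.13 and was called higher with every ASO. ASNS, asparagine synthetase, had 44.8 to 52.5 CPM without ASO, 158.0 to 176.3 CPM with the control ASO and means of 37.9 to 49.6 CPM with targeting ASOs. CHAC1, which degrades glutathione, went from 0.58 to 1.11 CPM to 10.1 to 13.4 CPM. The transcripts of ATF4 itself and of its targets ATF3 and TRIB3 were not called, at 0.71, −0.46 and 0.61 (ATF4 passed at 0.79 without no-ASO replicate 2).

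**Figure D4:**
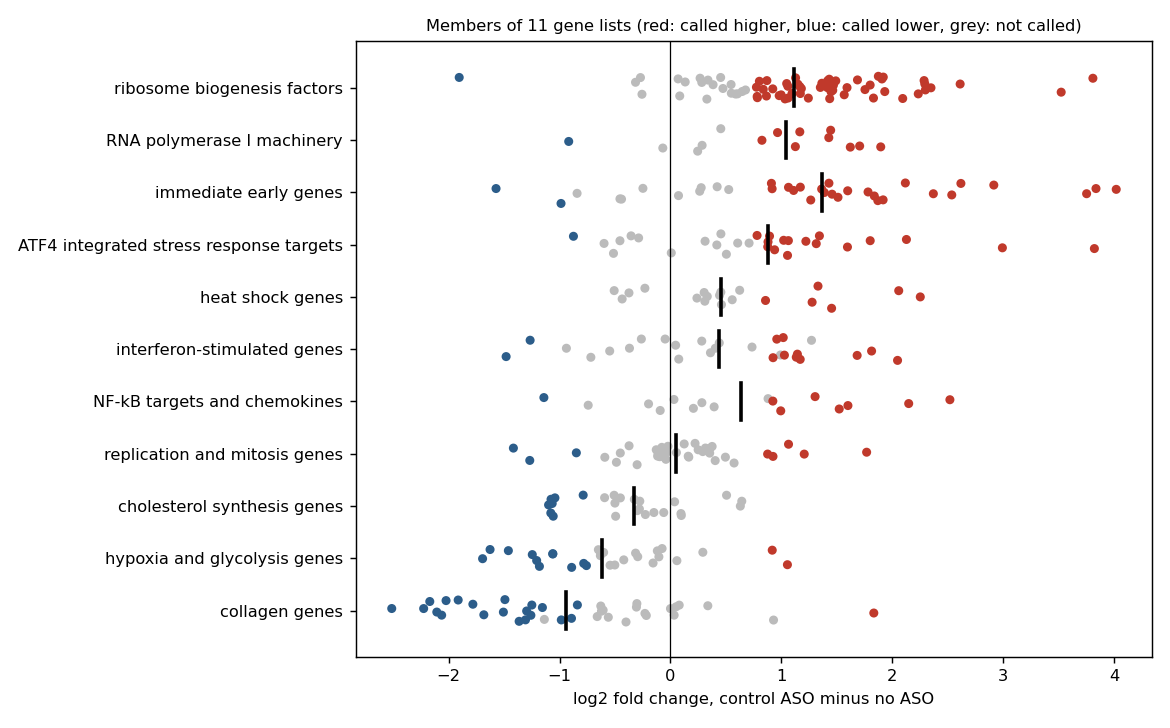
Each point is 1 tested gene of a list, placed by its log2 fold change between control ASO and no ASO, and black bars mark list medians. Ribosome biogenesis factors and immediate early genes lie mostly to the right (medians 1.11 and 1.36), hypoxia and collagen genes mostly to the left (−0.62 and −0.94), and replication genes around zero (0.05).

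Of 19 heat shock genes tested, 6 were higher (31.6%, against 16% higher and 32.3% called in either direction over all genes): HSPH1, DNAJA1, AHSA1, CHORDC1, HSPA8 and STIP1, all of the HSP70 and HSP90 systems, and the median was 0.45. HSPH1 had 126.4 to 131.1 CPM without ASO and 579.7 to 621.8 CPM with the control ASO, and means of 225.6 to 359.2 CPM with the targeting ASOs, each of which was called higher too. HSPA1A and HSPA1B, near-identical inducible HSP70 genes that may share reads, had log2 fold changes of −0.37 and −0.44 and were not called. Of 20 genes of the unfolded protein response in the endoplasmic reticulum 3 were higher, a share of 15% near the 16% of all genes. They were DNAJB9, DNAJB11 and HERPUD1, the last at 0.75 and under the size threshold, at 0.66, without no-ASO replicate 1, at 0.749 without no-ASO replicate 3 and at 0.70 without control ASO replicate 3. HSPA5 (BiP) was at −0.04.

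Genes of nucleic acid sensing and of the response to it were taken as lists. Of 27 interferon-stimulated genes tested, 10 were higher (37%, against 16% over all genes) and 2 lower. The median was 0.44, and 0.67 without no-ASO replicate 3. Of the calls 8 were in the control-ASO-alone class, which held 42.8% of all called genes. IRF7, a regulator of interferon genes, had 6.99, 3.73 and 6.13 CPM without ASO and 19.6, 19.9 and 18.9 CPM with the control ASO, a log2 fold change of 1.81 ± 0.17 (adjusted p = 4.2e-09). CMPK2, ISG20 and IFITM2 rose by 2.05, 1.68 and 1.17 (CMPK2 lost its call without no-ASO replicate 1, at 1.75, or 3, at 1.43), and STAT2 and BST2 fell by 1.27 and 1.48. IFIT1, which binds foreign RNA, rose from a mean of 5.30 to 10.2 CPM. ISG15 and MX1, widely used reporters of interferon, were not called, at 0.36 and −0.94.

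Of 19 listed sensors and adaptors 13 were tested. Of these 13, 4 were called, each higher, a share of 30.8% against 32.3% called and 16% higher over all genes. MYD88, the adaptor of most Toll-like receptors, rose from 2.81 to 3.58 CPM to 9.08 to 10.9 CPM. Whether the CpG dinucleotides of the control ASO were sensed was not tested. TBK1, the kinase downstream of cytosolic sensors, rose from 39.6 to 42.2 CPM to 80.6 to 90.7 CPM, and DHX58 and TLR3 rose by 1.37 and 1.24. NF-kB targets had 7 of 16 higher (43.8%, against 16% over all genes) and 1 lower. Their median was 0.64, but 0.35 without no-ASO replicate 3 and 0.23 with a mean of at least 20 counts. Among them CXCL2 rose from a mean of 0.34 to 1.96 CPM and ICAM1 from 0.58 to 2.64 CPM, while NFKBIA, a direct target, was at 0.03. RNASEH1, whose product cuts RNA paired with DNA, had 53.8 to 59.1 CPM without ASO, 154.8 to 162.5 CPM with the control ASO and means of 62.4 to 63.7 CPM with targeting ASOs. The log2 fold change of RNASEH1 was 1.51 ± 0.07 (adjusted p = 7.6e-14), and the subunits of RNase H2 were not called.

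**Figure D5:**
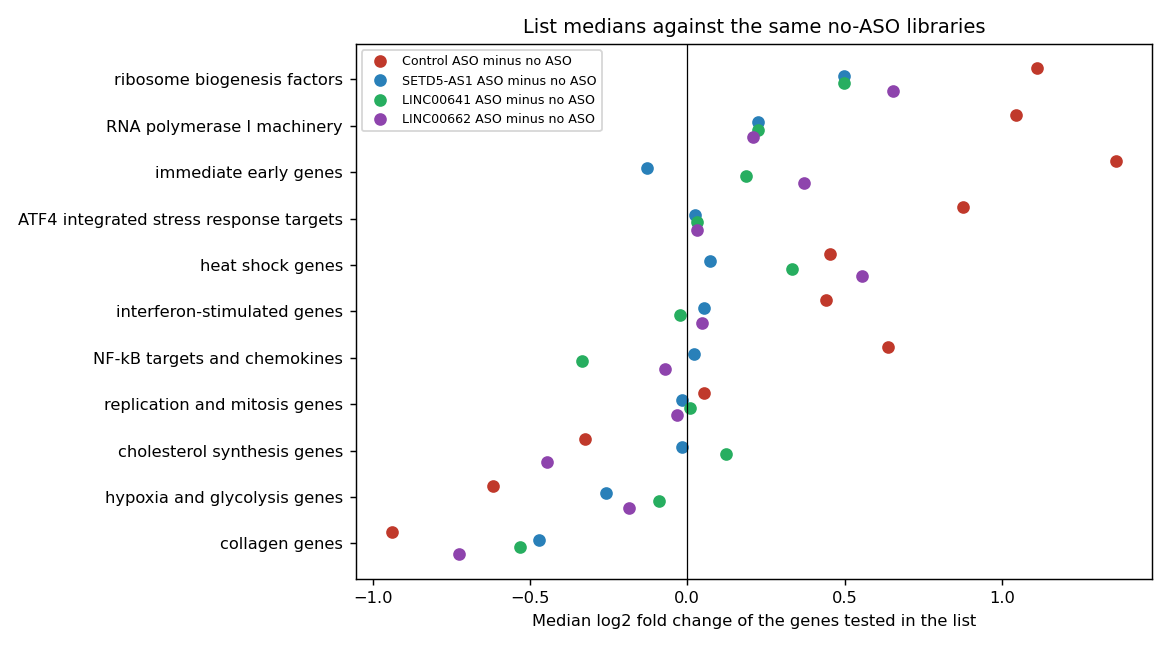
Points give the median log2 fold change of the tested genes of each list, for each of the 4 ASO groups against the same no-ASO libraries. The control ASO point is the highest for ribosome biogenesis, polymerase I, immediate early and ATF4 lists, and the LINC00662 ASO point is the highest for the heat shock list.

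Of 28 hypoxia and glycolysis genes tested 11 fell (39.3%, against 16.3% over all genes) and 2 rose, with a median of −0.62, against medians of −0.26, −0.09 and −0.19 with the SETD5-AS1, LINC00641 and LINC00662 ASOs. PDK1, a kinase that inhibits pyruvate dehydrogenase, had 65.6 to 80.2 CPM without ASO and a mean of 23.7 CPM with the control ASO. BNIP3, a mitophagy receptor, had 513.6 to 641.5 CPM and 205.2 to 216.4 CPM, and the hexokinase genes HK1 and HK2 fell by 1.18 and 1.06. Of 25 cholesterol synthesis genes 7 fell and 18 were not called, 28% called against 32.3% over all genes, with a median of −0.33. INSIG1, a sterol sensor, had 389.5 to 539.7 CPM without ASO and 190.2 to 267.3 CPM with the control ASO, and SREBF2, the transcription factor of the pathway, fell by 1.10.

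Collagen genes, a list taken by symbol after the values were seen, had 20 of 38 lower (52.6%, against 16.3% over all genes) and 1 higher, with a median log2 fold change of −0.94. They are long, with a median span of 149 kb, and the list's median was −0.75 with the span trend removed, when 17 were lower and 2 higher. COL4A1 and COL4A2, the chains of basement membrane collagen, had 155.6 to 205.9 and 258.0 to 322.9 CPM without ASO and 48.5 to 54.4 and 107.4 to 116.4 CPM with the control ASO. The list medians with the SETD5-AS1, LINC00641 and LINC00662 ASOs were −0.47, −0.53 and −0.73, and 9, 8 and 16 collagen genes were lower. Over all genes 2.83%, 3.47% and 11.4% were lower with these ASOs. CBX7 cells had 100.8 and 172.1 CPM of the 2 genes, which lay between the no-ASO and control ASO values.

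Among the 10 largest falls that all 4 ASOs shared were genes of the cell surface and matrix. GABBR1, a GABA-B receptor subunit, had 80.7, 60.2 and 74.3 CPM without ASO and 12.2, 10.8 and 11.5 CPM with the control ASO. Its means were 39.5, 41.9 and 40.7 CPM with the targeting ASOs and 40.8 CPM in CBX7 cells, so the targeting ASO and CBX7 means lay close together. IGFBP5, an IGF-binding protein, had 158.8 to 192.5 CPM without ASO, 37.0 to 38.2 CPM with the control ASO, means of 53.7 to 91.8 CPM with the targeting ASOs and 110.7 CPM in CBX7 cells. GPC6 (a glypican), SLIT3 (a guidance ligand), PARD3B (a polarity protein) and the fibrillar collagen gene COL5A1 fell by 2.16, 2.19, 2.22 and 2.17. Against the targeting mean the control ASO was lower still in IGFBP5 by 1.00 and in GABBR1 by 1.82. AMH (anti-Müllerian hormone) and DPH2 (diphthamide synthesis) were among the shared rises, at 2.85 and 2.86 with the control ASO, with targeting values of 2.27 to 2.39 for AMH and 0.85 to 1.01 for DPH2.

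Genes of the cell cycle showed no common direction. Of 37 replication and mitosis genes 5 were higher and 3 lower, 21.6% called against 32.3% over all genes, with a median of 0.05. CDC20, the mitotic activator of the anaphase-promoting complex, had 115.3 to 136.3 CPM without ASO and 411.0 to 438.1 CPM with the control ASO. MKI67 fell from 745.7 to 896.3 CPM to 297.9 to 312.9 CPM, while CDK1 and TOP2A were at 0.16 each and not called. The MKI67 means with targeting ASOs were 668.1 to 1027 CPM.

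Of 12 RNAs and genes that the study itself names, 3 rose (25%) and 4 fell (33.3%) with the control ASO. Over all genes 16% rose and 16.3% fell. The study chose the 12 with these or related samples in hand. MALAT1, an abundant nuclear lncRNA, had 2032, 2176 and 3039 CPM without ASO and 706.4, 738.5 and 1027 CPM with the control ASO. It was lower with every ASO, the targeting means being 1039 to 1322 CPM, and stood at 1827 CPM in CBX7 cells. NEAT1, the scaffold of paraspeckles, was at −0.41 and not called. TAF7, a subunit of TFIID, rose by 1.26 with the control ASO alone, and the transposase-derived gene PGBD5 fell by 0.79, and was under the size threshold at −0.73 without control ASO replicate 2 and at −0.58 with the span trend removed.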

How the data were processed

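Raw read counts for each gene were deposited by the authors in 2 tables of 57820 genes without normalization. Per the study's methods and the labels, poly(A)+ RNA libraries were trimmed with fastp 0.23.1, aligned to hg19 with HISAT2 2.1.0 and counted with featureCounts 2.0.1 over GENCODE genes. Strand and multi-mapping settings are not given in the sources used here, so overlapping, antisense and near-identical genes are uncertain, and the length in the tables is the whole gene span, so levels were not compared between genes. Samples were grouped by their titles. Genes with a sum above 42 counts over 14 libraries (3 per library) were fitted with edgeR 4.0.16 in R 4.3.3 (quasi-likelihood test, TMM scaling, Benjamini-Hochberg adjustment over all genes tested, 5 groups in 1 fit). Each adjusted p comes from these fits. The targeting ASO and CBX7 libraries had a fit of their own (11 libraries, sum above 33). Calling thresholds followed the study. Libraries held 8258859 to 15330874 counts. Per the study's methods the random bases at the read ends were trimmed. No removal of PCR copies is described for these libraries, so PCR copies may count as reads.

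Named genes were the ASO targets, 6 genes known from earlier results, the 10 largest rises and the 10 largest falls with 100 or more counts on average and separate ranges in the 2 groups (over all called genes, the control-ASO-alone class and the shared class), and called list members. Uncalled list members were added as values. Members and lists were chosen with earlier results of these data known. The ribosome biogenesis, polymerase I, collagen and ribosomal protein lists were drawn up after values were seen. ASO sequences came from the study's oligonucleotide list and were searched in GRCh37. The fits were tested on simulated data. Alternatives were DESeq2 1.42.0, other scalings and filters, a replicate block, fits of only the groups compared, leaving out each library and, chosen after seeing the data, removal of each library's gene span trend. The tables of the chromatin assay were not used here. Some items are not reported here.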

Additional observations from a re-analysis of the deposited data

How the results depend on the processing

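Calls between control ASO and no ASO numbered 4804 to 6177 over the other scalings, filters and tools (5810 with DESeq2), and 5934 with the replicate block. The replicate numbers were not treated as pairs, since the deviations of same-numbered samples correlated at 0.0125, 0.157 and 0.0753. The block gave 279 genes shared by all 4 ASOs and 2545 with the control ASO alone. With a mean of at least 20 counts, 957 genes were called between targeting ASOs and CBX7 cells, against 1507. Leaving out 1 library at a time gave 5646 to 5974 calls for control ASO against no ASO, 3806 to 4168 against the targeting ASOs, 223 to 388 for the shared class, 2351 to 2632 for the control ASO alone, 1037 to 1412, 845 to 1276 and 2874 to 3209 for the SETD5-AS1, LINC00641 and LINC00662 ASOs, 1444 to 1808 for their mean and 1307 to 1516 against CBX7 cells. Without a LINC00641 library that group had 1 sample, assumed to vary like the others. The number of higher ribosomal protein genes ran from 10 to 25 and of NF-kB targets from 4 to 7; the medians of the clock, YAP, replication and mitochondrial lists changed sign between settings. Uncalled genes near 0 changed sign: NFKBIA was at −0.051 with library size alone, −0.02 with trimmed TMM and −0.16 with the span trend removed, and leaving out 1 library it ran from −0.132 to 0.197, HSPA1B from −0.958 to 0.057 and HSPA5 from −0.158 to 0.036. With library size alone SETD5-AS1, HERPUD1 and MT-ND2 were at 0.73, 0.67 and 0.68. Genes with few counts are limited by depth.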

Other observations

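Most of the further lists held members that moved in both directions with the control ASO. The metallothionein and zinc list and the mitochondrially encoded list held called rises and no called falls. Over all genes tested 16% rose and 16.3% fell. Of 17 clock and CREB-target genes 5 rose and 2 fell. NR1D1, a nuclear receptor that represses the clock, rose from a mean of 4.62 CPM by 2.34 on the log2 scale, and the period genes PER1 and PER2 rose from 63.5 to 115.8 CPM and by 1.24, while ARNTL, the activator they oppose, fell from 8.15 to 4.19 CPM. With the span trend removed PER1 and ARNTL were under the size threshold, at 0.71 and −0.73. Of 27 p53 targets 6 rose and 3 fell: PPM1D, a phosphatase that restrains p53, rose by 1.13 and DDB2, a DNA repair factor, fell by 1.34. The list of 15 YAP and TEAD targets held 3 that rose, among them CYR61 at 0.90 and CTGF at 0.87, and 4 that fell, among them TEAD1 itself at −1.06; CYR61, CTGF and TEAD1 were under the threshold with the span trend removed, at 0.71, 0.68 and −0.47.

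Of 17 NRF2 genes 4 rose and 2 fell; PRDX1, a peroxiredoxin, rose from 157.3 to 434.4 CPM and SLC7A11, the cystine transporter, from 5.92 to 18.1 CPM. In the lysosome and autophagy list 4 of 38 rose and 2 fell, CTSA (a lysosomal carboxypeptidase) at 1.39 and MAP1LC3B (the autophagosome protein LC3) at 0.94 among the rises, the latter 0.53 and not called without control ASO replicate 3. Of 14 fatty acid synthesis genes GPAM, which starts triglyceride synthesis, rose by 1.66, and ACLY and FADS2 fell by 0.78 and 0.96. SLC30A1, a zinc exporter, rose by 1.52 and was the called gene among 5 of the metallothionein and zinc list. Of 13 mitochondrially encoded genes 3 rose: MT-ND3, MT-ND6 and MT-ND2, at 1.53, 1.06 and 0.76; MT-ND2 was under the threshold without no-ASO replicate 1 (0.72) and without control ASO replicate 2 (0.744) or 3 (0.717). Among 9 paraspeckle components SFPQ, an RNA-binding protein, rose by 1.26 and SMARCA4, a chromatin remodeller, fell by 1.15.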
